A study of Mus musculus with 2 samples.

Results

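The 10 genes described here belong to the Notch pathway. They are the 4 receptors Notch1, Notch2, Notch3 and Notch4, the 4 ligands Jag1, Jag2, Dll1 and Dll4, and the 2 target genes Hes1 and Hey1. They were taken by name from the 28000 features listed in both libraries, and each name matched 1 feature. Their RNA was followed across basal-like, luminal-like, endothelial-like and mural-like cells of mouse prostate tumors.

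Single cells were profiled from prostate tumor tissue of 2 mouse genotypes, with 1 library per genotype. Mice of the first genotype, called DoubleTg, were hHGFtg:H11 hMET/+:PB Cre4. Human HGF was expressed from 1 transgene throughout the animal, and human MET from another that stays silent until Cre recombinase removes a stop cassette. Mice of the second genotype, called TripleTg, carried the same alleles together with Ctnnb1 L(Ex3)/+, an allele that loses exon 3 to Cre and then encodes a stabilized β-catenin. In both genotypes Cre was driven by the probasin promoter of prostate epithelium, so endothelial and mural cells were not its intended targets, and every cell was exposed to human HGF. The DoubleTg tissue was labeled prostatic adenocarcinoma and the TripleTg tissue prostatic carcinoma. Neither the age of these mice nor the number pooled in a library is given in the sources used here, and no library came from a mouse without transgenes.

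Notch receptors sit in the membrane and are switched on by Jagged or Delta-like ligands on a neighboring cell. Binding lets ADAM proteases and then γ-secretase cut the receptor, and the freed intracellular domain joins RBPJ and a Mastermind-like protein in the nucleus to turn on genes such as Hes1 and Hey1. In prostate epithelium, Notch1 is known from basal cells. In vessels, endothelial Notch1, Notch4 and Dll4 shape sprouting and arterial identity, while Notch3 is the receptor best known from the smooth muscle cells and pericytes of the vessel wall, together called mural cells.

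Levels are given as unique molecular identifiers (UMIs, each marking 1 captured RNA molecule) of a gene in counts per 1000000 UMIs summed over the cells of a class (CPM). A range after a level is its exact 95% Poisson interval, and a range after a log2 ratio is a 95% conditional binomial interval. All ranges cover counting error alone, since 1 library per genotype leaves no replicate check, no test and no p-value for any difference below. Cells with more than 200 and fewer than 7000 genes and under 15% mitochondrial UMIs were kept, which left 10598 of 12072 DoubleTg cells with a median of 16761 UMIs and all 9492 TripleTg cells with a median of 20097 UMIs, whose matrix had been deposited without any cell outside these limits. The kept cells of the libraries had 29 barcodes in common, and leaving these cells out shifted no ratio of a member by more than 0.06 on the log2 scale. As a check of the labels, the Wnt target gene Axin2 stood at 81.5 CPM in TripleTg luminal cells against 1.74 CPM in DoubleTg, whereas the 3′ tags could not read the exon 3 deletion itself.

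Cell classes were rebuilt by clustering each library without the 10 members and 49 other pathway genes, and by reading marker genes of the clusters. The basal-like class held 1873 DoubleTg and 927 TripleTg cells, and Krt5 was detected in 94.1% and 92.2% of them. The luminal-like class held 5008 and 4406 cells. The endothelial-like class held 276 and 241 cells, with the endothelial adhesion gene Pecam1 in 88.0% and 86.7%. The mural-like class held 67 and 102 cells, with the pericyte and smooth muscle gene Rgs5 in 95.5% and 87.3%. The median depth was 12582 and 20111 UMIs per basal cell, 35412.5 and 25398.5 per luminal cell, 6135 and 7035 per endothelial cell, and 8030 and 7744.5 per mural cell. Luminal cells were thus the deepest in both libraries, and shares of cells with a UMI are also given after thinning to 5000 UMIs per cell. Cells with fewer UMIs were left out of these thinned shares, which rest on 1718 DoubleTg and 861 TripleTg basal cells, 4846 and 4270 luminal cells, 160 and 161 endothelial cells and 47 and 65 mural cells.

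**Figure D1:**
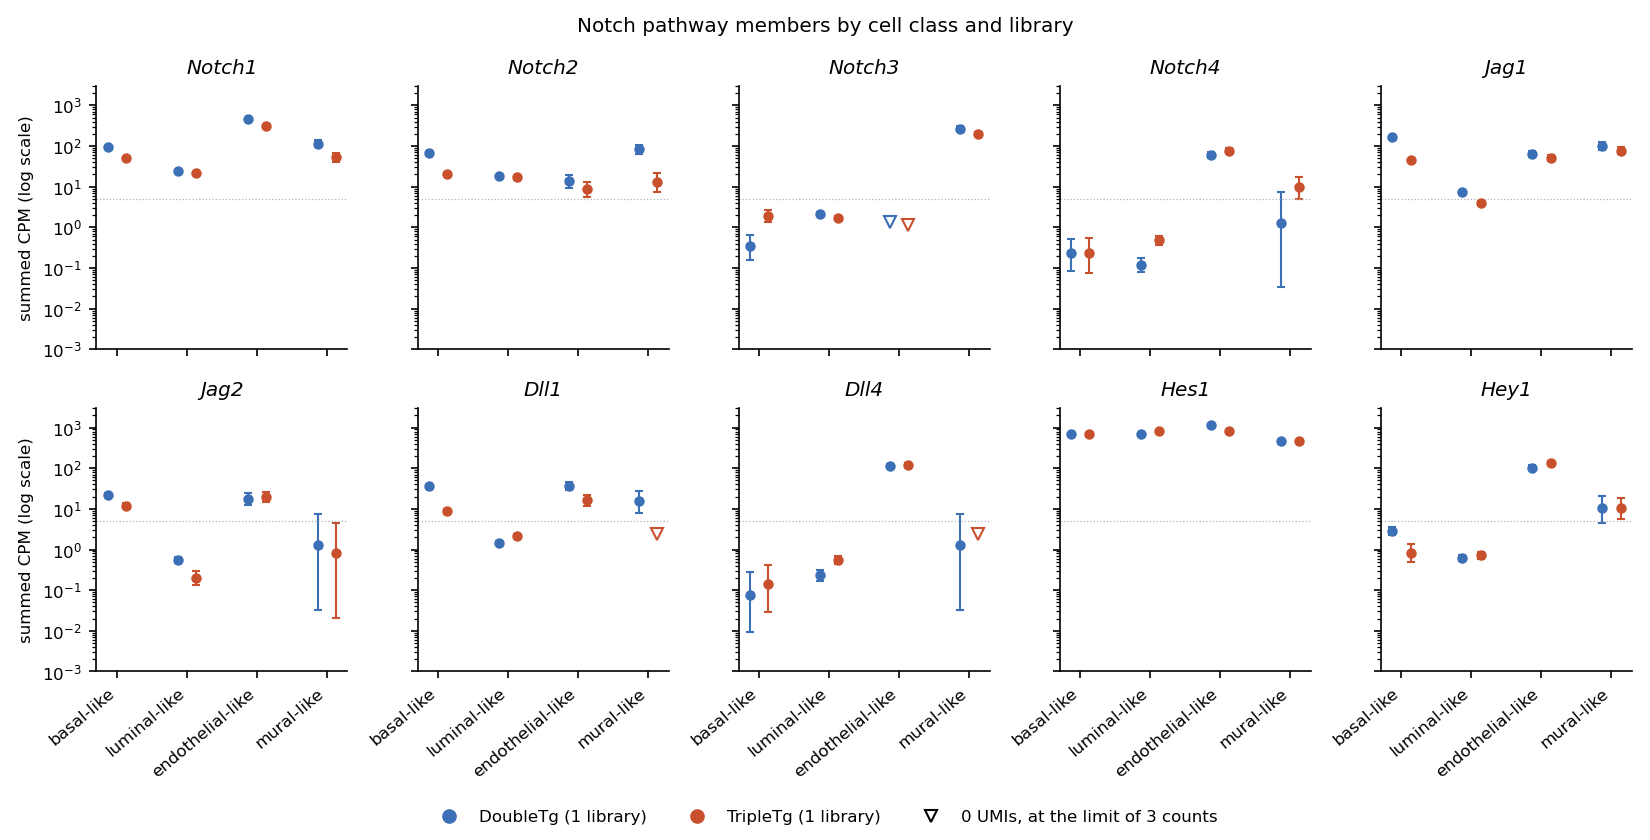
Level of each of the 10 Notch genes (CPM, log axis) in basal, luminal, endothelial and mural cells of the DoubleTg and TripleTg libraries. Points are summed levels, bars are 95% Poisson intervals, open triangles mark 0 UMIs at the limit of 3 counts, and the dotted line marks 5 CPM. Dll4, Notch4 and Hey1 peak in endothelial cells and Notch3 in mural cells in both libraries, while Hes1 lies between 458 and 1138 CPM in all 8 points.

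Notch1 encodes the receptor found in most tissues (chr2:26457903-26516663, minus strand, GRCm38). In DoubleTg it stood at 459.7 CPM (432.0 to 489) in endothelial cells, 115 CPM (92.5 to 142) in mural cells, 94.3 CPM (90.6 to 98.1) in basal cells and 23.9 CPM (23.2 to 24.6) in luminal cells. In TripleTg it stood at 305 CPM (285 to 328) in endothelial cells, 52.3 CPM (40.3 to 66.8) in mural cells, 50.99 CPM (48.0 to 54.1) in basal cells and 21.2 CPM (20.4 to 22.0) in luminal cells. Endothelial cells were highest and luminal cells lowest in both libraries, and the mural and basal intervals overlapped in each. Over all cells of the class, Notch1 was found in 69.9% of DoubleTg and 73.0% of TripleTg endothelial cells. Among the 160 and 161 deep enough to be thinned to 5000 UMIs it was found in 85.6% and 71.4%, so the order of the libraries turned with this choice. In luminal cells it was found in 47.4% and 37.3%, and in 10.4% and 9.13% of those thinned.

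Notch2, a second broadly expressed receptor (chr3:98013527-98150361, plus strand), followed another order. In DoubleTg it stood at 83.9 CPM (64.6 to 107) in mural cells, 68.1 CPM (65.0 to 71.4) in basal cells, 18.8 CPM (18.1 to 19.4) in luminal cells and 13.5 CPM (9.10 to 19.3) in endothelial cells. In TripleTg the basal class had 20.2 CPM (18.3 to 22.2), the luminal class 17.0 CPM (16.3 to 17.7), the mural class 13.1 CPM (7.48 to 21.2) and the endothelial class 8.90 CPM (5.64 to 13.4). The mural and basal cells that stood above the rest in DoubleTg were close to luminal cells in TripleTg, where the mural interval spanned both epithelial levels.

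Notch3, the mural receptor (chr17:32120820-32166852, minus strand), stood at 267 CPM (232 to 307) in DoubleTg and 201 CPM (177 to 228) in TripleTg mural cells. It had 0 UMIs in 276 DoubleTg and 0 UMIs in 241 TripleTg endothelial cells, so that the mural level was at least 198-fold and at least 173-fold higher, taking 3 counts as the limit over the endothelial class. Luminal cells had 2.11 and 1.72 CPM and basal cells 0.350 and 1.92 CPM. It was found in 79.1% and 68.6% of all mural and 7.45% and 4.68% of all luminal cells, and after thinning to 5000 UMIs in 63.8% and 60.0% of 47 and 65 mural cells and in 1.05% and 0.890% of luminal cells. No other member had its highest level in mural cells of both libraries.

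Notch4, a receptor known from vascular endothelium (chr17:34564268-34588503, plus strand), stood at 59.4 CPM (49.7 to 70.4) in DoubleTg and 75.9 CPM (65.6 to 87.3) in TripleTg endothelial cells. Luminal cells had 0.122 and 0.476 CPM and basal cells 0.233 and 0.234 CPM. In mural cells it had 1 UMI in DoubleTg (1.31 CPM) and 12 UMIs in TripleTg (9.81 CPM). A Notch4 UMI was found in 29.3% and 36.5% of all endothelial and 0.459% and 1.43% of all luminal cells. Among those thinned to 5000 UMIs the shares were 27.5% and 26.1% of 160 and 161 endothelial cells against 0.0413% and 0.351% of luminal cells.

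Because the assay counts 1 tag per captured molecule near the 3′ end, whatever the length of the transcript, counts of the receptors can be set side by side within a class. In basal cells Notch1 made up 57.8% of 4193 receptor UMIs in DoubleTg and 69.6% of 1564 in TripleTg, with Notch2 nearly all of the rest. Luminal cells had 53.2% and 52.5% Notch1 and 41.8% and 42.1% Notch2, within counting error of each other. Endothelial cells had 86.3% and 78.3% Notch1 followed by 11.1% and 19.4% Notch4. Mural cells had 57.1% and 72.8% Notch3, then Notch1 with 24.6% and 18.9%, and Notch2 with 17.9% and 4.73%. How efficiently each transcript is captured is unknown, so these shares need not be shares of protein.

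**Figure D2:**
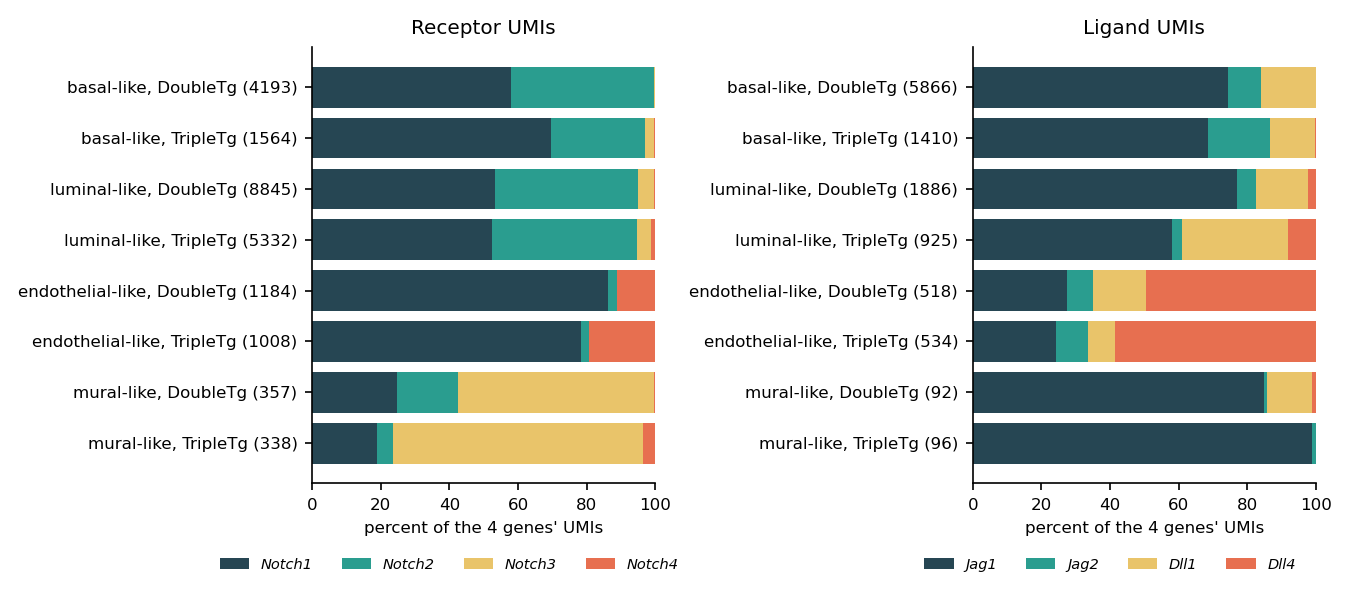
Share (percent) of the 4 receptors in their summed UMIs and of the 4 ligands in theirs, for each class and library, with the family total in brackets. Notch1 is the largest receptor share in basal, luminal and endothelial bars and Notch3 in mural bars. Jag1 is the largest ligand share everywhere except in endothelial bars, where Dll4 holds 49.6% and 58.4%.

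Jag1 encodes the main Jagged ligand (chr2:137081456-137116644, minus strand). In DoubleTg it stood at 169 CPM (164 to 174) in basal cells, 102 CPM (80.8 to 128) in mural cells, 63.9 CPM (53.8 to 75.3) in endothelial cells and 7.35 CPM (6.98 to 7.74) in luminal cells. In TripleTg the order changed to 77.7 CPM (62.8 to 94.9) in mural cells, 50.3 CPM (42.0 to 59.8) in endothelial cells, 45.3 CPM (42.5 to 48.2) in basal cells and 4.05 CPM (3.72 to 4.41) in luminal cells. Basal cells led in DoubleTg, whereas in TripleTg the basal and endothelial intervals overlapped and mural cells stood above both. Luminal cells had the least in either library, with a UMI in 2.77% and 2.18% of thinned cells against 48.4% and 19.98% of thinned basal cells. Over all cells the shares were 16.6% and 10.1% in luminal and 69.2% and 49.8% in basal cells.

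Jag2, the other Jagged ligand (chr12:112907819-112929776, minus strand), stood at 22.0 CPM (20.3 to 23.9) in DoubleTg and 12.04 CPM (10.6 to 13.6) in TripleTg basal cells. Endothelial cells had 17.5 CPM (12.5 to 24.0) and 19.4 CPM (14.4 to 25.5). Mural cells had 1 UMI in each library, and luminal cells had 0.553 and 0.204 CPM. Jag2 was thus a ligand of basal and endothelial cells here, and the 2 classes did not differ beyond counting error in DoubleTg, while endothelial cells were higher in TripleTg.

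Dll1, a Delta-like ligand (chr17:15367354-15376872, minus strand), stood at 36.6 CPM (34.3 to 39.0) in basal and 36.0 CPM (28.5 to 44.8) in endothelial cells of DoubleTg. In TripleTg the same classes had 8.62 CPM (7.42 to 9.96) and 16.3 CPM (11.7 to 22.0). Luminal cells had 1.43 and 2.17 CPM. Mural cells had 12 UMIs in 5 of 67 DoubleTg cells (15.7 CPM, 8.13 to 27.5) and 0 UMIs in 102 TripleTg cells, with an interval up to 3.02 CPM.

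Dll4, the Delta-like ligand of vessel sprouts and arteries (chr2:119325784-119335962, plus strand), stood at 116 CPM (102 to 131) in DoubleTg and 121 CPM (108 to 135) in TripleTg endothelial cells. Luminal cells had 0.233 and 0.567 CPM, basal cells had 2 and 3 UMIs, and mural cells had 1 UMI in DoubleTg and 0 in TripleTg. A UMI was found in 30.1% and 41.5% of endothelial cells. Luminal cells, which serve as the class without the gene, had one in 0.839% and 1.66%, although a luminal cell held 35412.5 and 25398.5 UMIs at the median against 6135 and 7035 in an endothelial cell. Among the 160 and 161 endothelial cells deep enough to be thinned to 5000 UMIs the shares were 32.5% and 34.2%, and among thinned luminal cells 0.103% and 0.234%.

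The promoters of Dll4, Notch4 and Notch3 are shown because these 3 genes stood far above luminal cells in 1 vessel class, endothelial for the first pair and mural for the last. Hey1, also endothelial, had no entry in the promoter table. Each is the 250 bases before the gene's start in RefSeq on GRCm38.p6, 5′ to 3′ on the gene's strand, and capitals mark GGAA or, on the other strand, TTCC, the core bound by ETS factors, a family active in endothelium.

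Dll4, chr2:119325534-119325783, plus strand: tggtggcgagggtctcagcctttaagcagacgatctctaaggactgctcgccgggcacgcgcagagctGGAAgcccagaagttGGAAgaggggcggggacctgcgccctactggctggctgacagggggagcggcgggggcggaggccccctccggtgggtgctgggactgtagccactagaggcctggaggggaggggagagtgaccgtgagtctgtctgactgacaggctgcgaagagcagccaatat
Notch4, chr17:34564045-34564294, plus strand: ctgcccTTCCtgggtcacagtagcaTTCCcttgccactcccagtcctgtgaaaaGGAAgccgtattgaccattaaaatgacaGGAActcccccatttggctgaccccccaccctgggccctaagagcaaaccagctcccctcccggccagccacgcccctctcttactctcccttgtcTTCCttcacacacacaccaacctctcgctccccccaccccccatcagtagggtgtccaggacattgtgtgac
Notch3, chr17:32166891-32167140, minus strand: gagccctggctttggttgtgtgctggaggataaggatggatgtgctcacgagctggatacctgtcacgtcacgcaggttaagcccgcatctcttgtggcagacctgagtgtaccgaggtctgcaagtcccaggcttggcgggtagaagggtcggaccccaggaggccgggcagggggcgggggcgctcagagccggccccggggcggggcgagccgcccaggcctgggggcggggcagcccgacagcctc

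Dll4 held 2 matches, Notch4 held 5 and Notch3 held none. The core is common, since 93.4% of 32851 promoters of the same length hold at least 1 match and the median promoter holds 3. The motif TGGGAA or TTCCCA of RBPJ, which overlaps the ETS core in its last 4 letters, was in 0 of the 8 members in the table and in 21.6% of all promoters. Hes1 was not in the table either. A match in these letters is a description and no evidence of binding.

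Hes1, the repressor that answers Notch in many tissues (chr16:30064384-30067796, plus strand), was the most abundant member in every class. It stood at 1138 CPM (1094 to 1183) in endothelial, 713 CPM (709 to 717) in luminal, 689 CPM (679 to 699) in basal and 458 CPM (411 to 508) in mural cells of DoubleTg. In TripleTg it stood at 847 CPM (842 to 851) in luminal, 837 CPM (802 to 873) in endothelial, 706 CPM (695 to 718) in basal and 464 CPM (427 to 504) in mural cells. Its range over the 8 values was narrow beside that of any other member. It was found in 95.7% and 96.6% of all luminal and 82.8% and 92.4% of all basal cells, and in 84.0% and 84.6% of luminal and 72.4% and 77.9% of basal cells after thinning. In mural cells the luminal keratin gene Krt8 stood at 1390 and 1407 CPM against 4781 and 5636 CPM in luminal cells, and the part of luminal RNA in the mural Hes1 level was not tested.

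Hey1, a related repressor prominent in vessels (chr3:8663359-8667256, minus strand), stood at 103 CPM (90.1 to 117) in DoubleTg and 135 CPM (121 to 150) in TripleTg endothelial cells. Mural cells had 10.5 CPM (8 UMIs) and 10.6 CPM (13 UMIs). Basal cells had 2.92 and 0.844 CPM and luminal cells 0.619 and 0.726 CPM. Like Dll4 and Notch4, Hey1 was highest in endothelial cells of both libraries.

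Contrasts between classes within a library were then counted over genes with at least 5 CPM in either class, and a gene was called at 2-fold or more. Because several members passed this filter only through the class where they were high, the counts describe and do not support a pattern. In basal against luminal cells, 5 of the 6 members over the filter were called higher in DoubleTg and 0 lower, where 18.4% of 9207 genes were called higher and 20.8% lower. In TripleTg 4 of 6 were called higher and 0 lower, beside 10.1% and 8.90% of 8946 genes. The log2 ratios were 1.98 and 1.27 for Notch1, 4.52 and 3.48 for Jag1, 5.32 and 5.88 for Jag2, and 4.68 and 1.99 for Dll1 in DoubleTg and TripleTg. For Notch2 the ratio was 1.86 (1.78 to 1.94) in DoubleTg and 0.25 (0.10 to 0.40) in TripleTg. Hes1 was nearly level, at -0.05 and -0.26.

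In endothelial against luminal cells, 7 of 9 members over the filter were called higher and 0 lower in each library. Of 9736 genes in DoubleTg 28.5% were called higher and 19.5% lower, and of 10035 genes in TripleTg 27.0% and 12.4%. The log2 ratios in DoubleTg and TripleTg were 8.95 and 7.73 for Dll4, 8.93 and 7.32 for Notch4 and 7.38 and 7.54 for Hey1. Jag2 followed with 4.99 and 6.57. Dll1 had 4.66 and 2.91, Notch1 4.27 and 3.85 and Jag1 3.12 and 3.63, so the order of these 3 differed between the libraries. The members not called were Notch2, at -0.47 and -0.93, and Hes1, at 0.67 and -0.02. Scaling by trimmed mean of M values (TMM) in place of total UMIs lowers all endothelial over luminal ratios by 0.41 and 0.44, the mural over luminal ones by 0.30 in each library and the basal over luminal ones by 0.21 and 0.03. Under that scaling Notch2 was called lower in TripleTg endothelial cells.

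In mural against luminal cells, 6 of 7 members over the filter were called higher in DoubleTg and 5 of 7 in TripleTg, and 0 lower in either. Of 9986 genes in DoubleTg 25.0% were called higher and 15.5% lower, and of 9878 genes in TripleTg 22.8% and 11.6%. Notch3 led with log2 ratios of 6.98 and 6.87. Hey1 had 4.08 and 3.87 and Jag1 3.8 and 4.26. Dll1 was called in DoubleTg alone, at 3.46 on 12 mural UMIs, and Notch4 in TripleTg alone, at 4.36 on 12 mural UMIs, since each was under the filter in the other library. Notch1 had 2.27 and 1.31, while Notch2 had 2.16 in DoubleTg and -0.38 (-1.19 to 0.33) in TripleTg. Hes1 had -0.64 and -0.87.

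Mural and endothelial cells meet in the vessel wall. Of 10 members, Notch3 and Notch2 were called higher in DoubleTg mural than endothelial cells and 7 were called lower, beside 19.4% and 19.5% of 10135 genes. In TripleTg Notch3 was called higher and 6 members lower, beside 13.8% and 17.3% of 10333 genes. Those lower in both were Notch1, at -1.99 and -2.55, Notch4, at -5.50 and -2.95, Hey1, at -3.30 and -3.66, Jag2, Dll1 and Dll4. For Jag2 the mural class had 1 UMI in each library against 39 and 50 endothelial UMIs. Dll4 had 1 mural UMI against 257 in DoubleTg, a log2 ratio of -6.46 (-11.77 to -3.97). In TripleTg it had 0 mural UMIs. It was 49.3-fold lower there with 3 counts in place of 0, and the log2 interval ended at -5.32. Jag1 was higher in mural cells by less than 2-fold, with 0.68 (0.26 to 1.09) and 0.63 (0.23 to 1.02), and Hes1 had -1.31 and -0.85.

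The genotypes were then compared within each class as TripleTg over DoubleTg. In basal cells 3 of 6 members over the filter were called lower in TripleTg and 0 of 6 higher. Among all 8979 genes of that comparison, 12.7% were called lower and 14.4% higher. The median log2 ratio of the 6 members was -1.32 and that of all genes -0.06. In bulk sums of this kind, fewer cells with a transcript and fewer transcripts per cell give the same ratio.

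Jag1 stood at 45.3 CPM in TripleTg against 169 CPM in DoubleTg basal cells, a log2 ratio of -1.90 (-2.0 to -1.8). Dll1 had 8.62 against 36.6 CPM, or -2.09 (-2.32 to -1.86). Notch2 had 20.2 against 68.1 CPM, or -1.76 (-1.91 to -1.60). These 3 genes were the ones called. Notch1, with 50.99 against 94.3 CPM, had -0.89 (-0.99 to -0.78), and Jag2, with 12.04 against 22.0 CPM, had -0.87 (-1.09 to -0.66). Hes1, with 706 against 689 CPM, had 0.04 (0.00 to 0.07), and the sign of this small difference was not stable, since it was -0.02 at 5000 UMIs per cell. The receptors and ligands over the filter were thus all lower in TripleTg basal cells, and the target Hes1 was not.

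The members under the filter in basal cells had few UMIs. Notch3 had 9 in DoubleTg and 41 in TripleTg, a log2 ratio of 2.46 (1.39 to 3.68). The target Hey1 had 75 and 18, or -1.79 (-2.62 to -1.03). The Notch3 ratio was 0.49 in basal cells with a UMI of the basal gene Trp63, and the Hey1 ratio was -0.74 at 5000 UMIs per cell. Notch4 had 6 and 5 and Dll4 had 2 and 3.

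Other properties of the basal class moved with the genotype. The 10 basal markers summed to 16089.6 CPM in DoubleTg and 6218 CPM in TripleTg, with 9 of 10 lower in TripleTg, 3 of them by 2-fold or more, and a median log2 ratio of -0.61. Krt15 stood at 7227 and 1055 CPM, Krt14 at 3369.8 and 1998 CPM and Krt5 at 1197 and 1102 CPM, while Trp63, the transcription factor of basal identity, was higher in TripleTg at 61.3 against 16.8 CPM. Seminal vesicle markers summed to 143 and 2069.5 CPM, with 4 of 8 at 0 in DoubleTg and none at 0 in TripleTg, and 10 fibroblast markers to 1301 and 159 CPM with none at 0. The stress-responsive genes Egr1 and Jun had 162 and 90.5 CPM and 823 and 549.5 CPM. Among basal cells with a Trp63 UMI, the ratios were -2.04 for Jag1, -2.28 for Dll1, -1.84 for Notch2, -1.17 for Jag2 and -0.83 for Notch1, so that 4 members were called lower. The ratio of Jag2 was -0.27 at 5000 UMIs per cell. The part of the other basal marker levels, the seminal vesicle and fibroblast markers, the Egr1 and Jun levels and the cell depth in these ratios was not tested.

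**Figure D3:**
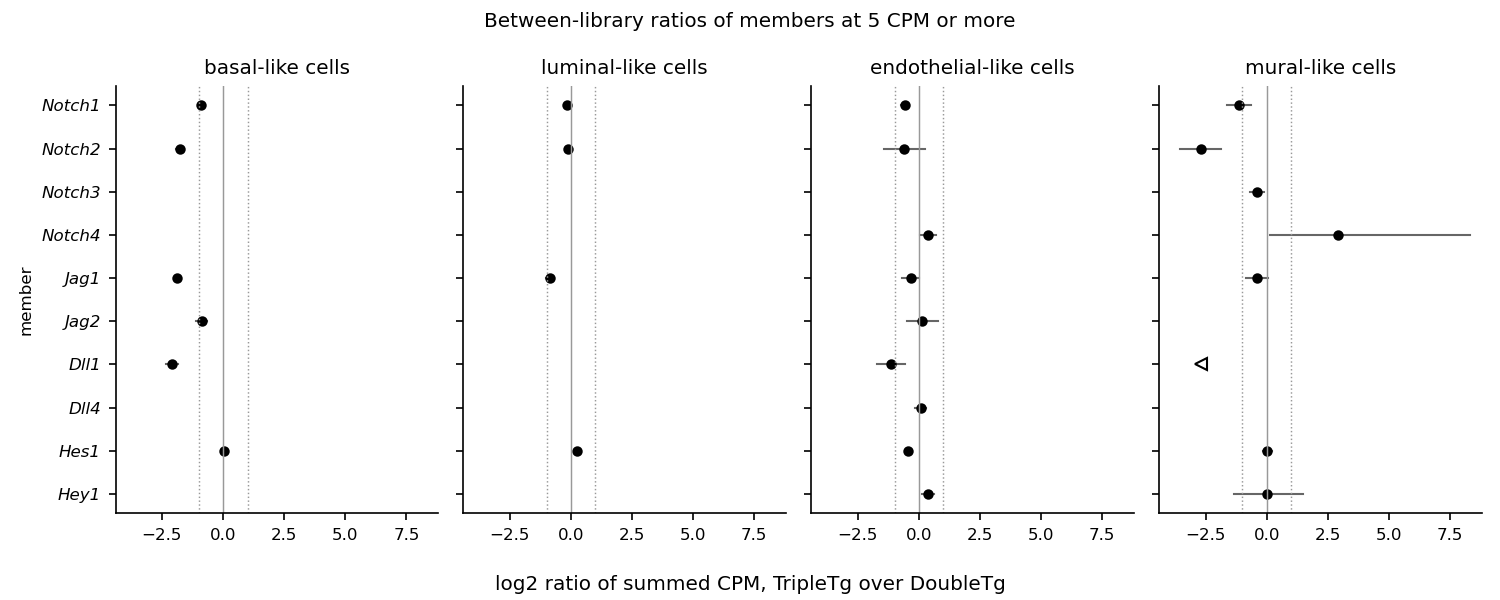
Log2 ratio of TripleTg over DoubleTg for the members over the filter in each class, with 95% conditional binomial intervals. Dotted lines mark 2-fold, and an open triangle marks 0 UMIs in TripleTg, drawn at the ratio with 3 counts in place of 0. In basal cells Jag1, Dll1 and Notch2 lie below the lower line, in luminal cells no member passes either line, and in mural cells Notch1, Notch2 and Dll1 lie below.

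In luminal cells 0 of 4 members over the filter were called in either direction, where 11.4% of 9067 genes were called higher and 12.0% lower. Notch1 had 21.2 against 23.9 CPM, a log2 ratio of -0.17 (-0.24 to -0.11), and Notch2 had 17.0 against 18.8 CPM, or -0.14 (-0.22 to -0.07). Jag1, which passed the filter only through DoubleTg, had -0.86 (-1.0 to -0.72). Hes1 had 847 against 713 CPM, or 0.25 (0.24 to 0.26). Of 14 luminal markers 11 were lower in TripleTg, 6 of them by 2-fold or more, and their sum was 21088 CPM in DoubleTg and 18337 CPM in TripleTg. The androgen-driven Pbsn, whose promoter drives Cre here, stood at 1641 and 7.83 CPM, the human MET transgene at 494 and 23.9 CPM, and the 8 seminal vesicle markers summed to 94.2 and 1360 CPM, with 1 of 8 at 0 in DoubleTg and none at 0 in TripleTg. Their part in the luminal ratios was not tested.

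In endothelial cells 1 of 9 members over the filter, Dll1, was called lower in TripleTg, with 16.3 against 36.0 CPM and a log2 ratio of -1.15 (-1.72 to -0.59). None was called higher, beside 13.6% of 9847 genes called higher and 7.90% lower. Averaged over cells with equal weight, the Dll1 ratio was -0.08, and without the 10% of cells richest in markers of other classes it was -0.98, so this call did not hold in either. Notch1 had 305 against 459.7 CPM, or -0.59 (-0.73 to -0.45), and Hes1 837 against 1138 CPM, or -0.44 (-0.53 to -0.36). With equal weight for each cell the Hes1 ratio was 0.04, so its direction turned. Notch4 had 0.35 (0.03 to 0.68), Hey1 0.39 (0.14 to 0.63) and Dll4 0.06 (-0.18 to 0.31). Notch4 and Hey1 were thus higher and Notch1 lower in TripleTg, each by less than 2-fold. The tip cell markers, 6 genes of sprouting endothelium, summed to 3051 and 3581 CPM in 2 TripleTg sub-clusters of endothelial cells. Their sum was at most 589 CPM in any DoubleTg sub-cluster. Only 2 of the 6 were raised in the first of these TripleTg sub-clusters, and all 6 in the second. The 12 endothelial markers summed to 10525 CPM in DoubleTg and 7669 CPM in TripleTg. Neutrophil markers summed to 12.1 and 1914 CPM and seminal vesicle markers to 229 and 6133 CPM. Basal markers summed to 1740 and 718 CPM and fibroblast markers to 796 and 239 CPM. Egr1 stood at 719 and 249.7 CPM, Ier2 at 652 and 357, Fos at 443 and 340, Jun at 776 and 696 and Atf3 at 496 and 491. Their part in these ratios was not tested.

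In mural cells, with 67 and 102 cells, 3 of 8 members over the filter were called lower in TripleTg and 1 higher, beside 16.1% and 16.7% of 10233 genes. Notch2 had 13.1 against 83.9 CPM, a log2 ratio of -2.68 (-3.57 to -1.87), and Notch1 had 52.3 against 115 CPM, or -1.14 (-1.63 to -0.66). Dll1 had 12 UMIs in DoubleTg and 0 in TripleTg. It was 6.42-fold lower with 3 counts in place of 0, and its log2 interval ended at -2.16. Notch4, with 12 UMIs against 1, had 2.90 (0.15 to 8.32), and 1.53 at 5000 UMIs per cell. Dll1 and Notch4 each passed the filter through 1 library only. Notch3, the main mural receptor, had -0.41 (-0.69 to -0.14), Jag1 -0.40 (-0.84 to 0.05), Hes1 0.02 (-0.17 to 0.22) and Hey1 0.02 (-1.36 to 1.5).

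The mural classes differed in makeup. The smooth muscle gene Myh11 stood at 813 CPM in DoubleTg and 143 CPM in TripleTg, and the pericyte gene Higd1b at 165 and 884 CPM, although all 17 mural markers together summed to 13099 and 12343 CPM. Fibroblast markers summed to 859 and 3352 CPM, with 2 of 10 at 0 in DoubleTg, and endothelial markers to 291 and 723 CPM, with 5 and 2 of 12 at 0. Seminal vesicle markers summed to 173 and 2633 CPM, neutrophil markers to 0 and 231 CPM and macrophage markers to 7.87 and 168 CPM. Basal markers were lower in TripleTg, at 1185 and 729 CPM, and so were luminal markers, at 6328 and 5358 CPM. The stress-responsive genes Egr1, Atf3, Ier2 and Fos stood at 1071 and 464, 872 and 284, 778 and 284 and 455 and 301 CPM. Jun went the other way, at 542 and 656 CPM. Their part in the mural ratios was not tested.

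Within a class, the members also varied between clusters. The DoubleTg basal cells fell into a cluster of 533 cells led by Krt15 and Aqp3 and one of 1340 cells led by Lgals7 and Krt5. Notch1 stood at 64.6 and 100.2 CPM in them, Notch2 at 51.8 and 71.4, Jag1 at 136 and 176, Jag2 at 16.1 and 23.2 and Dll1 at 28.2 and 38.3. The TripleTg basal cells fell into a cluster of 704 cells led by Ifi202b and Calcb and one of 223 cells led by Clca3a2 and Krt15. These had 51.9 and 45.1 CPM of Notch1, 19.95 and 21.5 of Notch2, 45.3 and 45.1 of Jag1, 11.5 and 15.4 of Jag2 and 5.93 and 26.5 of Dll1. Both TripleTg clusters stood below both DoubleTg clusters for Notch1, Notch2 and Jag1, with no overlap of intervals. For Jag2 the intervals of both TripleTg clusters overlapped that of the smaller DoubleTg one, for Dll1 that of the smaller TripleTg cluster did, and the low basal Dll1 level of TripleTg lay in its larger cluster.

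**Figure D4:**
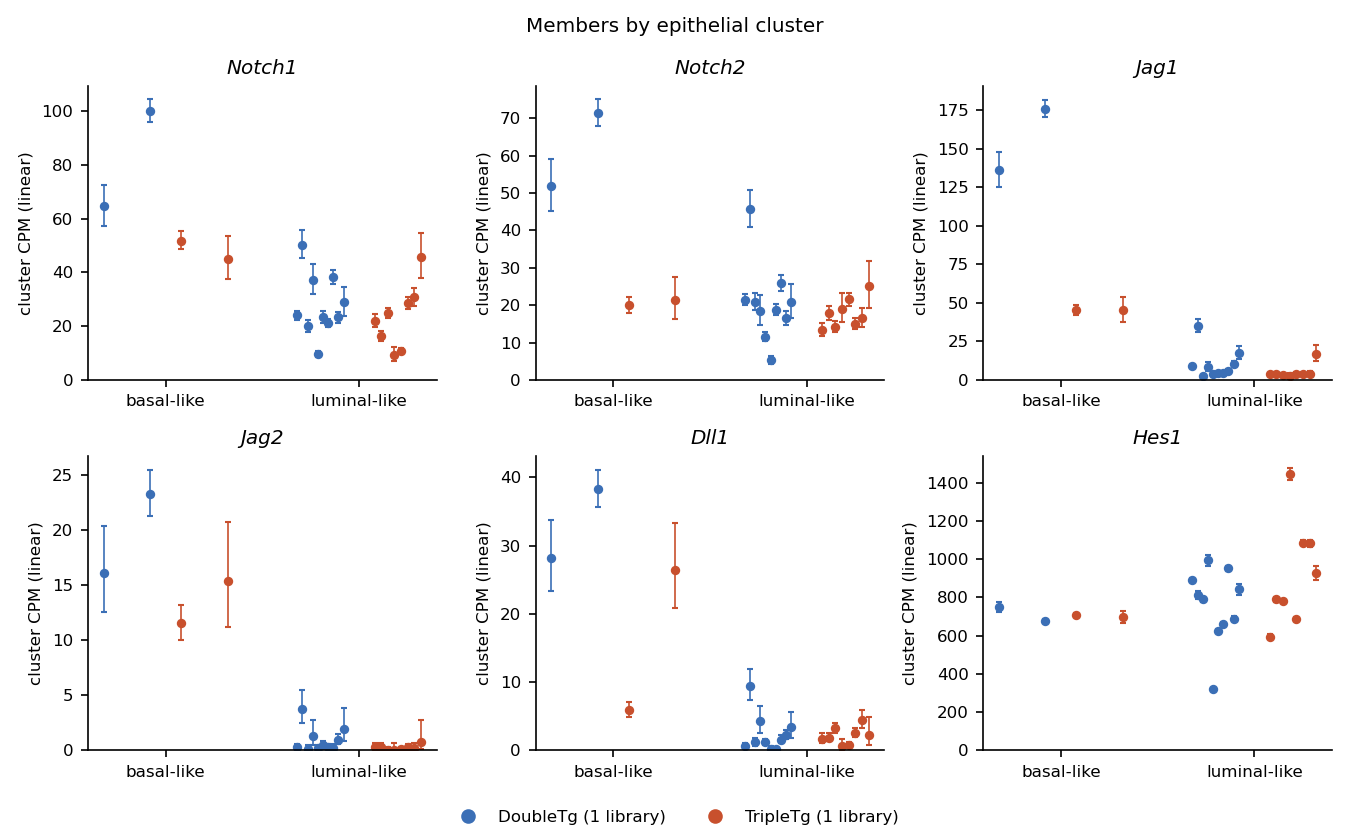
Level (CPM, linear axes) of Notch1, Notch2, Jag1, Jag2, Dll1 and Hes1 in each basal and luminal cluster of both libraries, with 95% Poisson intervals. The 2 TripleTg basal clusters lie near 45 CPM of Jag1 against 136 and 176 CPM in DoubleTg, and luminal clusters spread widely in Hes1, from 319.6 to 1446 CPM.

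Luminal clusters, 10 in DoubleTg and 8 in TripleTg, ranged from 9.75 to 50.3 CPM and from 9.33 to 45.8 CPM of Notch1. The highest value in DoubleTg was in a cluster of 240 cells led by Gsdmc2 and Cyp2f2, which also had the most Notch2 (45.7 CPM), Jag1 (35.0 CPM) and Dll1 (9.46 CPM) of the luminal clusters and Krt5 in 44.2% of its cells. In TripleTg a cluster of 97 cells led by Reg3b and Reg1 had the most Notch1 and Jag1 (16.7 CPM), and Krt5 in 26.8% of its cells. The luminal clusters with most Notch1 and Jag1 were thus those with the widest Krt5 detection in each library. Hes1 was lowest in the DoubleTg cluster led by the secretory gene Sbpl, at 319.6 CPM, and highest in a TripleTg cluster of 166 cells led by Gkn3, at 1446 CPM, which had the least Notch1 of the TripleTg luminal clusters. Clusters led by the interferon-induced Ifit genes had 993 CPM of Hes1 in DoubleTg and 1083 CPM in TripleTg.

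Endothelial cells were divided further into 7 sub-clusters in each library. A sub-cluster of 17 cells in each had all 5 lymphatic markers raised, 3 of them among its 10 leading genes, and was called lymphatic-like, and the others stayed unnamed. In the lymphatic-like cells Notch1 stood at 610.4 CPM (492 to 749) in DoubleTg and 223 CPM (149.6 to 321) in TripleTg. A sub-cluster with high keratin RNA had 99.8 CPM in DoubleTg and 115 CPM in TripleTg. Of the other sub-clusters, 4 in DoubleTg had 532 to 583 CPM and a shallow one of 67 cells led by seminal vesicle genes had 215 CPM, while the 5 in TripleTg had 334 to 401 CPM. The lower Notch1 of TripleTg was thus seen in the lymphatic-like cells, whereas the keratin-rich pair had overlapping intervals and the shallow DoubleTg sub-cluster had a lower level than the 5 of TripleTg, with a wide interval of 128 to 340 CPM. The interval of the TripleTg sub-cluster at 401 CPM (325 to 488) also overlapped those of DoubleTg ones at 532 (419.8 to 665), 535 (473 to 602) and 557 CPM (473 to 653). That of the DoubleTg sub-cluster at 532 CPM overlapped the TripleTg one at 376 CPM (306 to 456) as well.

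Notch4 had 2 UMIs in the lymphatic-like cells of DoubleTg and 0 in those of TripleTg, and the keratin-rich sub-clusters were also low, at 16.3 and 19.1 CPM. The highest levels were 91.1 and 129 CPM. The DoubleTg lymphatic-like level of 13.3 CPM had an interval of 1.61 to 47.9 CPM, which overlapped those of several other sub-clusters. Dll4 was highest in sub-clusters of 41 DoubleTg cells (196 CPM) and 27 TripleTg cells (203 CPM). In the lymphatic-like cells it stood at 106 CPM in DoubleTg and 23.1 CPM in TripleTg. The TripleTg sub-clusters led by Glycam1 (27 cells) and Camp (40 cells), which had the most tip cell marker RNA, also had the most Notch4, at 128 and 129 CPM, and 259 and 166 CPM of Hey1. They held 39 and 105 of the 196 endothelial Notch4 UMIs of TripleTg. Hey1 reached 240.5 CPM in a DoubleTg sub-cluster of 34 cells and 259 CPM in the TripleTg sub-cluster that also led in Dll4. Of the endothelial Notch2 UMIs, 17 of 30 in DoubleTg and 9 of 23 in TripleTg lay in the keratin-rich sub-clusters. The lymphatic-like sub-clusters held 9 and 3 more. In the remaining sub-clusters Notch2 stood at 0 to 6.91 CPM in DoubleTg and 2.47 to 16.4 CPM in TripleTg. The part of keratin-rich cells in the endothelial Notch2 ratios was not tested. All of these levels rest on 17 to 67 cells per sub-cluster.

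**Figure D5:**
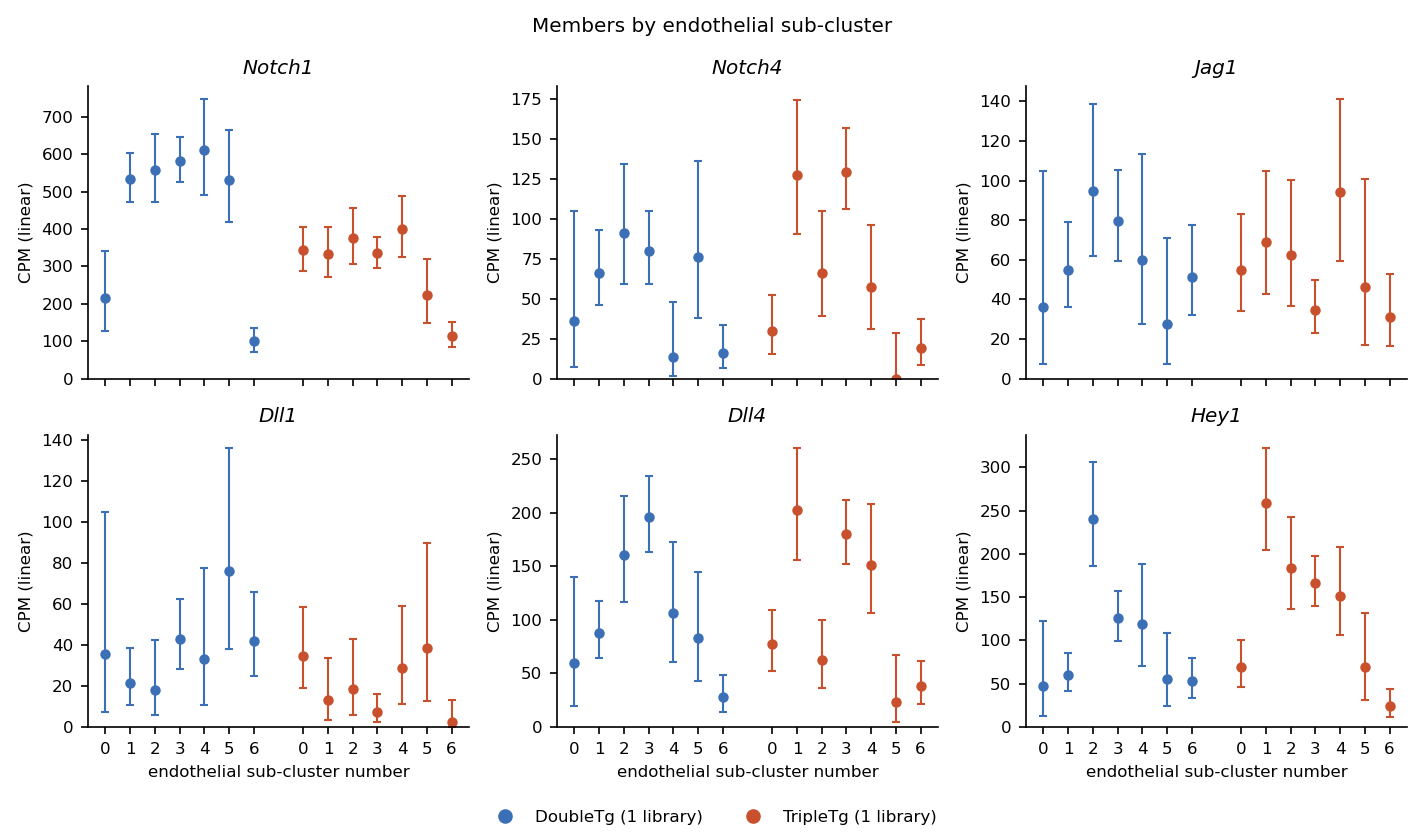
Level (CPM) of Notch1, Notch4, Jag1, Dll1, Dll4 and Hey1 in the 7 endothelial sub-clusters of each library, with 95% Poisson intervals. Notch1 lies above 300 CPM in 5 of 7 sub-clusters of each library, and Notch4 has 2 UMIs in the lymphatic-like sub-cluster 4 of DoubleTg and 0 in the lymphatic-like sub-cluster 5 of TripleTg.

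The genes whose levels were most like each member were ranked by Pearson correlation of log2(CPM + 1) over 45 clusters of at least 50 cells from both libraries, among 13815 genes. These clusters share libraries and differ in depth, so the values are a description. Nearest to Dll4 were Grrp1, Ushbp1 and Arhgef15, each at 0.95, and nearest to Notch4 were Atoh8 and Tmem252 at 0.93 and the member Hey1 at 0.91. Hey1 was in turn nearest to Notch4, then to Adgrf5 and Zfp423 at 0.89. For Notch3 these were Clstn3 at 0.88 and Slc6a17 and Dmp1 at 0.87, for Jag1 Tgfb1i1 at 0.92 and Smtn and Homer3 at 0.91, and for Jag2 Lmo1 at 0.85, Rgs12 at 0.83 and Krt5 at 0.82. Notch1 was most like Rapgef1, Zfp281 and Apbb2 (0.88, 0.87 and 0.86), Notch2 most like Irs2, Mapkapk2 and Pramef8 (0.81, 0.78 and 0.76) and Dll1 most like Ces2e, Esf1 and Qtrtd1 (0.79, 0.77 and 0.76). Hes1 was most like Ctnnd1 at 0.90 and Wasl and Cttn at 0.89, and its correlation with the other members was 0.07 to 0.38.

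The other 49 genes of the pathway were read from a list of ligands, ligand ubiquitination, glycosylation, cleavage, nuclear complex, turnover and target genes. In TripleTg against DoubleTg basal cells, 3 of 32 over the filter were called higher and 3 lower, with a median log2 ratio of -0.04. Over all genes 14.4% were called higher and 12.7% lower with a median of -0.06, so the list had no larger share in either direction. Dlk2, a non-canonical ligand, had 7.31 against 35.8 CPM (log2 ratio -2.29), and the Notch inhibitor Numbl and the regulator Dtx4 had -1.75 and -1.51. Higher were the protease gene Adam10, with 108 against 38.2 CPM (1.49), the ubiquitin ligase gene Dtx3l (1.15) and the repressor Hes6, with 32.2 against 2.25 CPM (3.84).

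In luminal cells 6 of 30 were called higher in TripleTg and 3 lower, beside 11.4% and 12.0% of all genes. The median log2 ratio was 0.22 for the list and 0.01 for all genes. The nuclear partners of the freed receptor were among the higher ones, with Rbpj at 49.8 against 22.3 CPM (log2 ratio 1.16) and Maml3 at 64.1 against 21.3 CPM (1.59). The ubiquitin ligase genes Neurl1a and Neurl3 had 2.10 and 2.08 and the glycosyltransferase gene Poglut1 had 1.41. Lower were the γ-secretase genes Psen2 and Ncstn, at -1.73 and -1.08, and Dtx4 at -1.67.

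In endothelial cells 5 of 33 were called higher in TripleTg, a share near the 13.6% of all genes, and 0 lower beside 7.90%. The median log2 ratio was 0.10 for the list and 0.05 for all genes. The glycosylation genes Mfng, with 116 against 42.7 CPM (1.44), Poglut1 (2.07) and Pofut1 (1.15) were 3 of the 4 of their group over the filter, and Adam10 (1.07) and Hes6 (1.54) were the others. Mural cells had 7 of 35 called, fewer in each direction than the 16.7% of all genes called higher and 16.1% lower, with a median of 0.06 for the list and 0.05 for all genes. The 4 higher were Adam17 (2.13), Aph1b (2.64), Poglut1 (1.98) and Nedd4 (1.02), and the 3 lower were Nrarp, Dtx3l (-2.10) and Mib2 (-1.36). Nrarp, a feedback inhibitor that Notch induces, stood at 71.1 CPM in TripleTg against 455 CPM in DoubleTg mural cells (-2.68, -3.03 to -2.34), on 87 and 347 UMIs. The remaining mural calls other than Nedd4 rest on at most 35 UMIs in either library.

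Contrasts between classes placed other pathway genes beside the members in both libraries. In basal over luminal cells of DoubleTg 7 of 33 genes were called higher and 7 lower, near the 18.4% and 20.8% of all genes. In TripleTg 3 of 32 were called higher and 3 lower, near 10.1% and 8.90%. Dlk2 (5.63 and 6.11) and Maml2 (2.95 and 2.08) were called higher in both libraries and Neurl3 (-1.01 and -2.22) lower. In endothelial over luminal cells 15 of 34 and 15 of 35 genes were called higher and 3 lower in each library, where all genes had 28.5% and 27.0% higher and 19.5% and 12.4% lower. These were led by Mfng (8.72 and 9.05) and Dtx1 (8.72 and 7.38). Also higher in both were Neurl1b, Neurl3, Mib1, Lfng, Adam17, Maml1, Maml2, Dtx3l and Nrarp, the last at 66.6 and 63.9 CPM, while Rfng and Hes6 were lower. In mural over luminal cells of DoubleTg 9 of 35 genes were called higher and 2 lower, beside 25.0% and 15.5% of all genes. In TripleTg 9 of 35 were called higher and 5 lower, beside 22.8% and 11.6%. The target Heyl (6.65 and 7.60) was called higher in both, with Nrarp (6.77 and 4.71), Numbl (4.84 and 5.92), Dtx3 (3.45 and 3.0) and Maml2 (2.31 and 1.19). Heyl stood at 68.2 CPM in DoubleTg and 35.1 CPM in TripleTg mural cells and had 0 and 1 UMIs in endothelial cells. In mural over endothelial cells of DoubleTg 9 of 38 genes were called higher and 14 lower, beside 19.4% and 19.5% of all genes. In TripleTg 5 of 37 were called higher and 12 lower, beside 13.8% and 17.3%. Heyl, Numbl, Dtx3 and Dtx4 were higher in both libraries. Mfng, Lfng, Neurl1b, Neurl3, Adam10, Maml2, Spen, Fbxw7, Dtx1 and Dtx3l were lower in both. Of the targets, Hey1 thus had its highest level in endothelial and Heyl in mural cells of both libraries.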

How the data were processed

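The values that the authors deposited are UMI counts before any normalization, in 1 matrix for each library. The DoubleTg matrix holds called cells before the authors' limits on genes and mitochondrial UMIs. The TripleTg matrix had already been limited, since its 9492 cells are the number that the methods give after these limits. The DoubleTg cell numbers, 12072 deposited and 10598 kept, differ from those in the methods. Per the labels they came from Cell Ranger 6.0.2 and the mm10 genome, although the DoubleTg header gives 6.1.1 and no version stands in the TripleTg header. The same limits, applied here to both, removed DoubleTg cells only, 71 with too few genes, 421 with too many and 1042 with high mitochondrial UMIs, some on more than 1 ground.

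Both libraries were clustered separately (scanpy 1.11.5, 2000 variable genes, 20 principal components, 15 neighbors, Leiden resolution 1), leaving out the members and the pathway list. Clusters were named from marker lists. The naming thresholds, and a list of cornified genes that kept 723 TripleTg cells unnamed, were set after the clusters had been seen. Endothelial cells were divided again on 1000 genes, 10 components and 15 neighbors at resolution 0.8. No doublets were removed from the main values, since scrublet called 273 DoubleTg cells and 0 of 9492 TripleTg cells. Why it called none in TripleTg was not tested, and this does not show that doublets were absent there.

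UMIs were summed per class and divided by the class total. Sums have exact Poisson intervals, shares have exact binomial (Clopper-Pearson) ones and ratios conditional binomial ones, all at 95%. Where a count was 0, the ratio was given with 3 counts in its place, while its interval used 0. Ratios were counted at 2-fold among genes that reached 5 CPM in 1 of the groups compared. No test was run between the libraries. The text names all members, the pathway genes past 2-fold between genotypes or in a class contrast of both libraries, and the 3 genes most like each member. The values of 1 pathway gene that this rule would name are not reported here. The members and lists were chosen with earlier results of these data known. Alternatives were cells thinned to 5000 UMIs, other Leiden resolutions, other weights, filters and doublet treatments, and TMM factors from edgeR 4.0.16. The ratios and intervals were tested on simulated data. Gene spans are from GENCODE mouse release M21 and promoters from RefSeq.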

Additional observations from a re-analysis of the deposited data

Results flagged for a closer look

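Notch2 was also measured in cells outside the 4 classes. In TripleTg it stood at 30.0 CPM in fibroblast-like and 33.5 CPM in immune-like cells, above its level in each of the basal, luminal, endothelial and mural classes of that library. In DoubleTg the same cells had 58.3 and 48.8 CPM, below basal and mural cells.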

How the results depend on the processing

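No paired analysis was possible because each genotype has 1 library, and for the same reason no replicate could be left out. Of the log2 ratios under other settings, 950 stayed within the interval of the main value and 213 moved outside it. A change of sign was counted only where the main interval excluded 0. There were 7 of these, all of Hes1. Its TripleTg over DoubleTg ratio in basal cells, 0.04 in the main analysis, was -0.0209 at 5000 UMIs per cell, -0.0285 at Leiden resolution 2, -0.0350 without the 5% of cells with the highest scrublet score, -0.0119 with cornified clusters kept and -0.0870 in cells with a Trp63 UMI. In endothelial cells it was 0.0386 as a mean over single cells, against -0.44. Its basal over luminal ratio in DoubleTg was 0.0155 in cells with a Trp63 UMI, against -0.05.

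Of the counts of called members, 246 held within 1.5 times and 24 did not. Without the filter on low values, called members went from 0 to 1 higher in TripleTg basal cells, from 0 to 2 higher and 0 to 1 lower in TripleTg luminal cells, and from 0 to 2 lower in basal against luminal cells of each library. The 1 lower endothelial member, Dll1, became 0 as a mean over single cells and without the 10% of cells with most markers of other classes. Lower members in endothelial against luminal cells went from 0 to 1, Notch2, at 5000 UMIs, as a mean over single cells, without those 10% and without the 5% highest scores in both libraries, without scrublet calls in DoubleTg, and with cornified clusters kept or TMM in TripleTg. Lower members in mural against luminal cells went from 0 to 1, Hes1, at 5000 UMIs in both libraries, as a mean over single cells in DoubleTg, and without the 5% highest scores or with TMM in TripleTg. Higher members in mural against endothelial cells of TripleTg went from 1 to 2, with Notch2, as a mean over single cells. The cause of these shifts was not tested. The settings on scrublet scores, cornified clusters, Trp63 and shared barcodes were chosen after seeing the data. With 67 and 102 mural cells, counts of under 20 UMIs limit Notch4, Dll1, Jag2, Dll4 and Hey1 there, and Notch2 in TripleTg (16 UMIs).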

Other observations

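Outside the 4 classes, Jag1 made up most ligand UMIs of fibroblast-like cells, 93.4% of 698 in DoubleTg and 93.4% of 229 in TripleTg, and of immune-like cells, 82.2% of 292 and 84.9% of 239. Notch2 was the largest receptor share of fibroblast-like cells, at 57.0% of 995 UMIs in DoubleTg and 45.9% of 362 in TripleTg. Hes1 stood at 477 and 429.8 CPM in fibroblast-like cells, 211 and 341 CPM in immune-like cells and 196 and 201 CPM in seminal vesicle-like cells. In the last class 8 seminal vesicle markers took 368786 and 448832 CPM, which lowers the CPM of every other gene, and after thinning a Hes1 UMI was found in 47.7% and 48.5% of those cells against 29.0% and 40.6% of immune-like cells. In the 723 TripleTg cells left unnamed for cornified genes, Notch2 held 55.7% of 901 receptor UMIs and Notch1 32.2%, the reverse of their order in TripleTg basal and luminal cells.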
